A study of Homo sapiens with 24 samples.

Results

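Of 30475 Rbap46 sites in the authors' deposited table, 1589 (5.21%) stood above input by less than 2 log2 units and shared at least 1 bp with a site whose acetylation of histone H3 lysine 9 (H3K9ac) changed after HAT1 depletion. Both the enrichment over input and the overlap chose these sites, which are called member sites here, so neither is a finding about them. Sites under the limit of 2 log2 units numbered 30126, of which 28537 had no such overlap. A member site and the H3K9ac site it overlapped form a pair, and there were 1648 pairs with 1607 different H3K9ac sites. The values are log2 mean normalized read concentrations per site and group, called levels below, as the authors deposited them.

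The libraries were labelled as hTert-HME1 cells, mammary epithelial cells of human origin kept dividing by added telomerase, grown in mammary epithelial medium. Chromatin immunoprecipitation followed by sequencing (ChIP-seq) of untreated cells with an antibody to Rbap46 gave 2 libraries, set against 2 input libraries made with no antibody. ChIP-seq for H3K9ac gave 3 libraries of control cells (shControl, titled shCon2, shCon3 and shCon5) and 3 libraries of cells with a hairpin against HAT1 (shHAT1, titled A7, B6 and C5). What the titles A7, B6 and C5 stand for, and whether same-group libraries came from separate cultures, was not given in the sources used here. Each group is present only as its mean, so no spread between libraries, no test and no depth per library could be given. Positions are on hg19, the build named in the submitters' processing notes. No annotation of that build was used here, so sites are given by position without gene names, and the labelled cell type could not be checked against its marker genes.

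Rbap46, also called RBBP7, is a histone chaperone that grips the first helix of histone H4 and presents newly made H4 to HAT1, the acetyltransferase for lysines 5 and 12 of that histone. It also belongs to complexes that deacetylate or methylate histones, so its presence on chromatin is not limited to its role with HAT1. H3K9ac is a mark of active promoters laid down mainly by acetyltransferases other than HAT1.

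H3K9ac was lower in shHAT1 cells at nearly all H3K9ac sites that member sites overlapped. It was lower at 1597 of 1607 (99.4%) and higher at 10. Over all 2191 deposited H3K9ac sites, which are those that passed the authors' false discovery rate (FDR) of 0.1, the lower share was 99.2%. Of about 12048 sites the authors tested, a number inferred from their p-values and FDR, 18.0% were lower at that FDR. The members' share lay close to that of the deposited sites. The median level at overlapped H3K9ac sites was 9.42 in shControl and 8.65 in shHAT1. The median difference, shHAT1 minus shControl, was -0.75, with quartiles of -0.89 and -0.63, which is a 1.68-fold lower level. Which direction prevails rests on the authors' scaling between libraries, which was not stated.

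Loss at member sites was smaller than at H3K9ac sites that no Rbap46 site above input overlapped. At those 523 sites the median difference was -0.88, a 1.84-fold lower level. A loss of at least 2-fold was present at 222 of 1607 overlapped sites (13.8%), against 172 of 523 sites without Rbap46 (32.9%) and 18.3% of all deposited sites. The exact 95% binomial intervals of these member and non-member shares, which cover counting of sites only, ran from 12.2% to 15.6% and from 28.9% to 37.1%. Neighbouring sites are not independent and were picked by the authors' test, so this is a description of the deposited sites. At FDR under 0.05 the shares were alike, with 576 of 1607 overlapped sites (35.8%), 191 of 523 others (36.5%) and 36.1% of all deposited sites lower in shHAT1. At FDR under 0.01, 30 of 1607 overlapped sites (1.87%) were lower, against 14 of 523 others (2.68%) and 2.01% of all deposited sites. H3K9ac sites overlapped only by Rbap46 sites at 2 log2 units or more above input numbered 61. Their median difference of -0.77 and share with at least a 2-fold loss of 13.1% (8 of 61) lay close to the values at member sites.

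The H3K9ac level of control cells differed between these sets as well. Overlapped sites had a median shControl level of 9.42 and the others 8.83, and losses needed to be larger to enter the table at low levels. The pairs were divided by shControl level into 4 classes of similar size. In the lowest class, from 7.03 to 8.87, the smallest loss was -0.50, and in the highest, from 9.85 to 11.92, it was -0.40. The deposited H3K9ac sites were divided in the same way. In their lowest class the median difference was -0.84 at 297 overlapped sites and -0.96 at 241 sites without Rbap46. In the next classes the medians were -0.78 against -0.85 and then -0.70 against -0.81. In the highest class they were -0.69 at 462 overlapped sites and -0.73 at 66 others. The direction of the gap was the same in all 4 classes, and in each the ranges between quartiles, which describe single sites, overlapped. Shares with at least a 2-fold loss were 28.3% against 44.8% in the lowest class and 17.8% against 30.2% in the next. They were then 8.91% against 18.9%, and 5.84% against 13.6% in the highest. The exact 95% intervals of these shares were apart in the lowest class and the next and overlapped in the others.

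**Figure D1:**
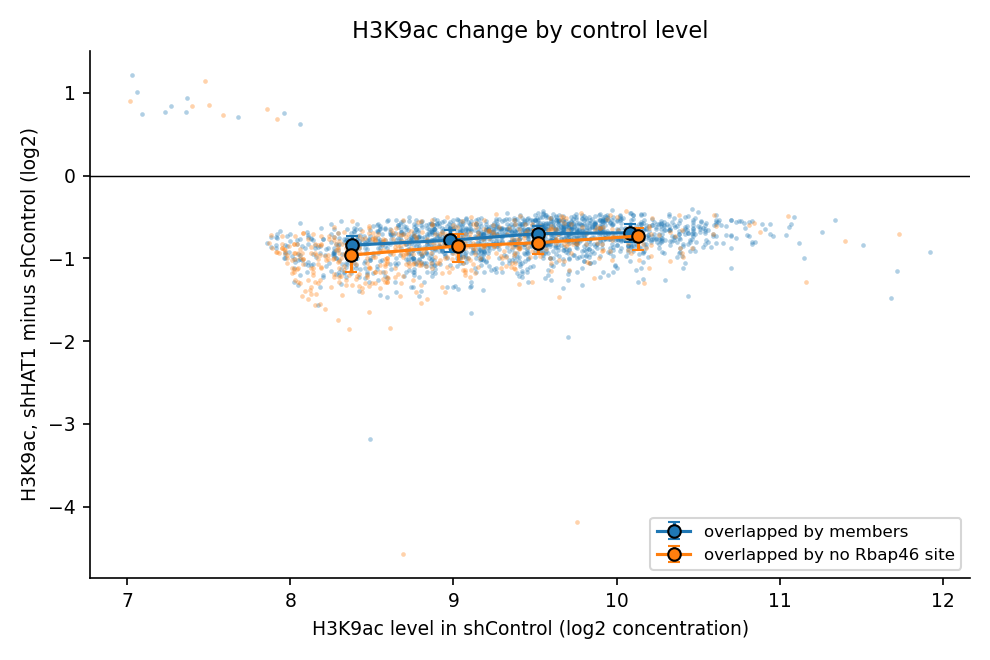
H3K9ac difference (shHAT1 minus shControl, log2, vertical axis) against the shControl level (log2 concentration, horizontal axis) for sites overlapped by member sites (blue) and by no Rbap46 site above input (orange). Small points are sites, and large points with bars are the median and quartiles in each of 4 classes of level, where the blue medians run from -0.84 to -0.69 and the orange ones from -0.96 to -0.73.

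Overlap also became rarer at lower levels. Member sites overlapped 85.1% of the H3K9ac sites of the highest class and 53.5% of those of the lowest. By distance, 1187 of 2191 H3K9ac sites (54.2%) had the centre of an Rbap46 site above input within 250 bp, and 123 (5.61%) had none within 50000 bp. The median difference was -0.74 in the nearest class, -0.93 from 1000 to under 5000 bp and -0.90 in the farthest. Median shControl levels of these classes were 9.45, 8.75 and 8.77. The loss thus did not keep growing with distance.

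Member sites were fuller sites of the Rbap46 table. Their median Rbap46 level was 7.68, with quartiles of 7.25 and 8.02, and their median input level was 6.49. Sites under the same limit without overlap had medians of 6.81 and 5.80. Both levels were thus higher in member sites, and the median of Rbap46 minus input differed far less, at 1.16 (2.23-fold over input) in member sites and 1.04 (2.06-fold) in the others. At least 2-fold enrichment was present at 1116 of 1589 member sites (70.2%), against 57.7% of all 30126 sites under the limit. These values chose the sites in part and are given as a description.

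The share of Rbap46 sites that overlapped a changed H3K9ac site followed the level more steeply than the enrichment. Sites were divided into 10 classes of similar size by each measure. The share was 0.36% in the lowest class of Rbap46 level and 19.2% in the highest. Across classes of input level it ran from 0.491% to 16.2%. Across classes of Rbap46 minus input it was 3.89% in the lowest and 10.6% in the highest. The background over all sites under the limit was 5.27%, and of 299 sites at 2 log2 units or more above input 60 (20.1%) overlapped. Input level alone therefore ordered the sites by overlap nearly as far as the Rbap46 level did, and the part of input signal in the overlap was not tested.

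**Figure D2:**
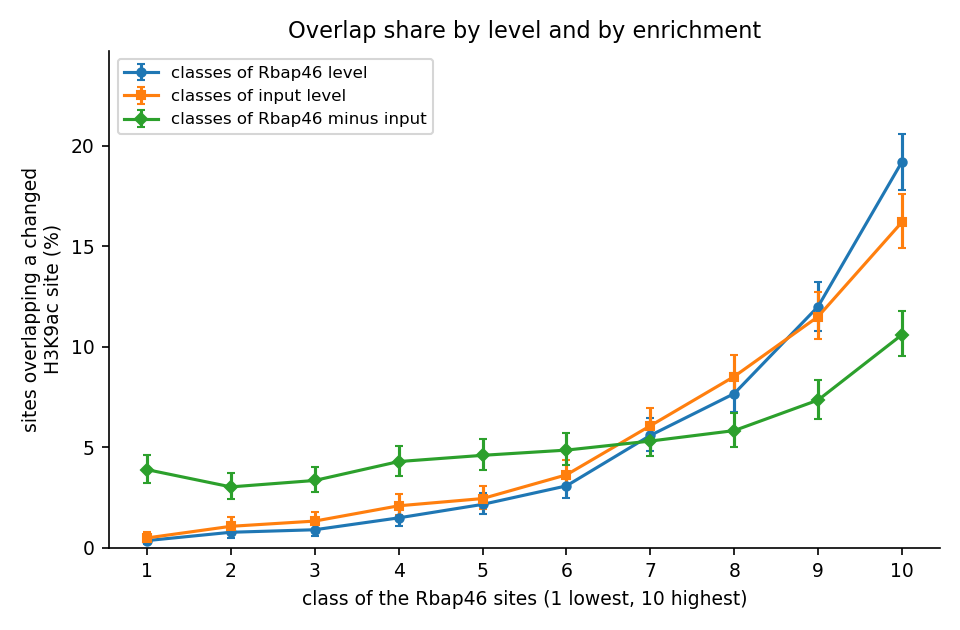
Share of Rbap46 sites under the limit that overlap a changed H3K9ac site (%, vertical axis) by class of Rbap46 level, of input level and of Rbap46 minus input (horizontal axis, 10 classes of similar size, 1 lowest). Bars are exact 95% binomial intervals; the curves of both levels rise from under 1% to 19.2% and 16.2%, and that of the difference from 3.89% to 10.6%.

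With the Rbap46 level held within 4 classes, the step by enrichment depended on the class. In the highest class of level, from 7.42 to 10.82, overlap was found at 11.6% of sites with a difference under 1, at 13.5% between 1 and 1.5 and at 19.8% from 1.5 to under 2. In the class below, from 6.86 to 7.41, the same shares were 4.74%, 4.95% and 6.42%, and in the next, from 6.32 to 6.85, they were 1.24%, 1.77% and 3.8%. In the lowest class, from 4.11 to 6.31, they were 0.675%, 0.78% and 0.433%, the last from 3 of 693 sites. The share thus rose with enrichment in the upper 3 classes of level, but not equally clearly. In the highest class the exact 95% intervals of the end ranges of enrichment were apart, 10.2% to 13.1% and 17.6% to 22.1%. They were also apart in the class from 6.32 to 6.85, 0.936% to 1.62% and 2.04% to 6.41%. In the class from 6.86 to 7.41 and in the lowest class the intervals of all shares overlapped. Near the limit itself, 21 of 191 sites between 1.9 and under 2 were member sites, and 27 of 124 sites between 2 and under 2.1 overlapped an H3K9ac site.

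Over the 1648 pairs, Rbap46 enrichment and H3K9ac change were hardly related. The Spearman correlation of Rbap46 minus input with shHAT1 minus shControl was 0.084 and Pearson's r was 0.080, given across sites that share the same 4 group means and with no p-value. A positive sign means that loss was slightly smaller where enrichment was larger. The median difference was -0.76 for pairs with enrichment under 0.75 and -0.71 for those from 1.5 to under 2. The share of pairs with at least a 2-fold loss was 17.8% (23 of 129) in the former and 8.14% (24 of 295) in the latter. Median shControl levels of both ranges were 9.34 and 9.54, so the H3K9ac level moved with the enrichment. Within the 4 classes of shControl level the Spearman correlation was 0.145, 0.105, 0.027 and -0.038 from the lowest to the highest, so the small positive value was carried by the lower levels.

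**Figure D3:**
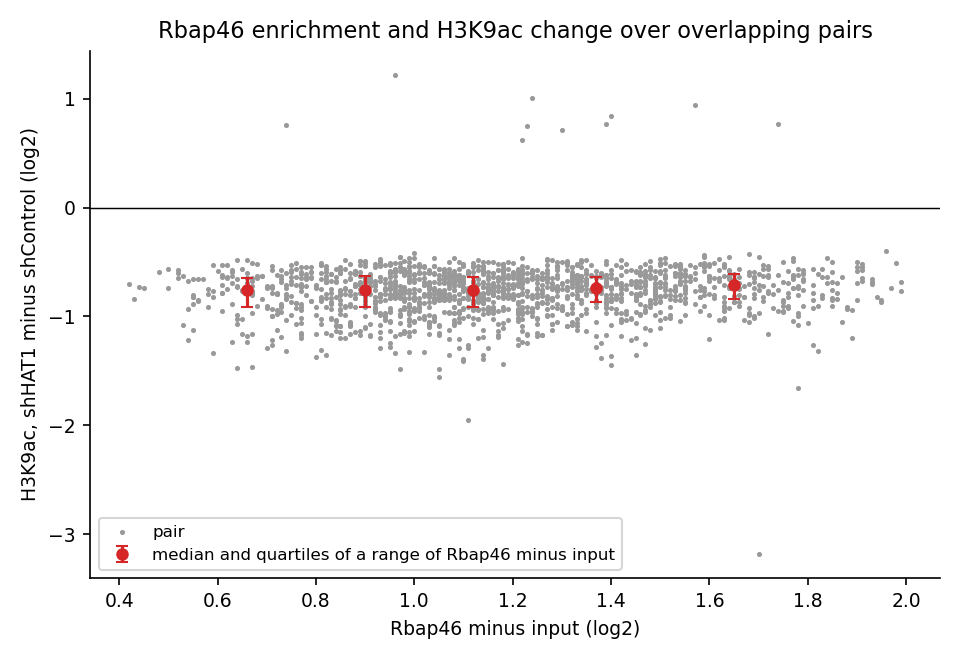
H3K9ac difference (shHAT1 minus shControl, log2, vertical axis) against Rbap46 minus input (log2, horizontal axis) for the 1648 pairs (grey). Red points are medians and bars quartiles of 5 ranges of enrichment; the medians stay between -0.76 and -0.71, and 10 pairs lie above 0.

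Levels were related a little more than changes were. The Spearman correlation of Rbap46 level with shControl H3K9ac level was 0.240 over the pairs, and that of input level with the same H3K9ac level was 0.194. The shControl level itself had a Spearman correlation of 0.295 with the H3K9ac difference, larger in size than that of Rbap46 level with that difference, 0.121. As the difference contains the shControl level and the table holds only sites past an FDR limit, that value is no independent measure.

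The centres of both sites of a pair lay close together. The median distance was 163 bp, with quartiles of 72.4 and 291 bp and a range from 0 to 902 bp. Pairs with centres less than 100 bp apart numbered 559 (33.9%), those from 100 to under 200 bp 408 (24.8%) and those from 400 to under 500 bp 150 (9.1%). More than 250 bp were shared in 1216 pairs (73.8%). Most sites of both tables are 501 bp wide, so the rule itself limits the distance. Among the 1215 pairs with both sites of that width, the largest possible distance is 500 bp, the median was 175 bp, and 803 (66.1%) were within 250 bp. Rbap46 centres lay at the lower coordinate in 599 of these pairs and at the higher coordinate in 610. Both sides were thus about equally frequent in genome orientation, and the side relative to transcription was not analysed here. The centres coincided in 7 pairs, whose H3K9ac differences ran from -0.81 to -0.49. At the other end, 2 pairs shared only 2 bp and had differences of -0.99 and -0.79.

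**Figure D4:**
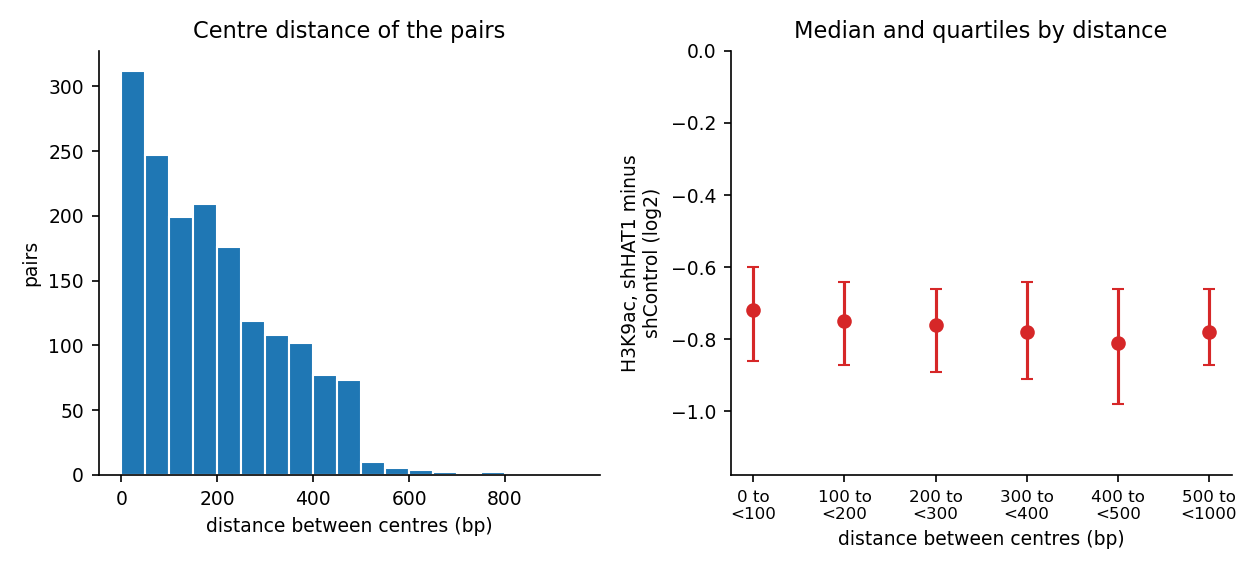
Left, number of pairs (vertical axis) by distance between centres (bp, horizontal axis), falling from 0 bp with few pairs beyond 500 bp. Right, median and quartiles of the H3K9ac difference (shHAT1 minus shControl, log2) by distance, with medians from -0.72 under 100 bp to -0.81 at 400 to under 500 bp and -0.78 beyond.

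Loss grew slightly with distance up to 500 bp. The median difference was -0.72 under 100 bp, -0.75 from 100 bp, -0.76 from 200 bp, -0.78 from 300 bp and -0.81 from 400 bp to under 500 bp. In the 26 pairs from 500 bp, which include wider sites, it was -0.78. A loss of at least 2-fold was present in 69 of 559 pairs (12.3%) of the nearest class and in 33 of 150 (22%) of the class from 400 bp to under 500 bp. In the classes between, the share was 12.7%, 14.2% and 12.9%, so it stayed nearly level below 400 bp. Median shControl levels were 9.46 in the nearest class and 9.23 from 400 bp to under 500 bp. The Spearman correlation of distance with the difference was -0.122, and Pearson's r was -0.074. In the 4 classes of shControl level the Spearman correlation was 0.013, -0.070, -0.162 and -0.154 from the lowest to the highest. The Spearman correlation of enrichment with distance was -0.117. Median enrichment was 1.22 in the nearest class, 1.14, 1.18, 1.09 and 1.06 in the next 4, and 1.33 in the 26 pairs from 500 bp, the highest of the 6 classes.

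Some member sites sat between a pair of H3K9ac sites. This arrangement was found at 59 member sites, and in each the Rbap46 centre lay between both H3K9ac centres. For a member site of 501 bp, overlap with both H3K9ac sites itself places the centre there, so that position is no finding. Both H3K9ac sites were lower in shHAT1 in all 59, beside 99.2% of deposited sites. Their differences were within 0.2 of each other in 34 of the 59, with a median gap of 0.17 and a largest gap of 0.79. The largest gap was at chr16:11836362-11836862, with Rbap46 and input levels of 7.74 and 6.92. The H3K9ac site to its left fell from 9.96 in shControl to 9.40 in shHAT1, and the one to its right from 8.18 to 6.83. At chr9:137029709-137030209, with Rbap46 and input levels of 7.95 and 6.84, both neighbours had a shControl level of 9.70 and shHAT1 levels of 7.75 on the left and 8.44 on the right. The sides thus lost by unequal amounts at these selected sites. The reverse arrangement, with a pair of member sites under 1 H3K9ac site, occurred at 41 H3K9ac sites.

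The 5 members nearest the upper limit of enrichment had H3K9ac differences from -0.77 to -0.40. At chr2:61244410-61244910 the levels were 8.33 in Rbap46 and 6.34 in input, and H3K9ac was 9.50 in shControl and 8.73 in shHAT1. At chr11:64851486-64851986 they were 7.75 and 5.76, with H3K9ac at 9.35 and 8.67. These enrichments of 1.99 came with H3K9ac differences of -0.77 and -0.68, near the median of all pairs. The site chr19:56166543-56167043 had levels of 8.33 and 6.35 with a high H3K9ac level, 10.48 in shControl and 9.97 in shHAT1. At chr9:140099772-140100272 the levels were 8.27 and 6.30, and H3K9ac went from 10.15 to 9.41. At chr10:99094382-99094882 they were 7.91 and 5.95, and H3K9ac went from 10.46 to 10.06. The last difference, -0.40, was the smallest loss among all pairs. Just outside the limit, at an enrichment of 2.00, 4 sites on chromosomes 16, 7, 16 and 6 had H3K9ac differences from -0.73 to -0.57.

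Of the H3K9ac sites that member sites overlapped, the 5 with the largest losses lay under enrichments from 0.97 to 1.78. The largest loss of all deposited H3K9ac sites, -4.57, was at a site that no Rbap46 site above input overlapped. At chr19:35739393-35739893, where Rbap46 stood at 8.22 and input at 6.52, H3K9ac was 8.49 in shControl and 5.31 in shHAT1. This difference of -3.18, a 9.06-fold lower level, stood apart from all other pairs, and the authors' deposited table gives it an FDR of 0.0706. Next came the left neighbour of the chromosome 9 site above, at -1.95 (in the authors' deposited table the FDR was 0.0557). At chr16:8891491-8891991 the levels were 8.37 and 6.59, and an H3K9ac site that shared 28 bp went from 9.11 to 7.45 (FDR of 0.0204, from the authors' deposited table). At chr9:139844469-139844969 the levels were 7.39 and 6.34, and H3K9ac went from 8.17 to 6.61. The fifth H3K9ac site, chr9:136214261-136215607, was wide and strongly acetylated, going from 11.68 to 10.20, and held member sites with enrichments of 0.97 and 1.05. Of these 5 H3K9ac sites, 3 lay on chromosome 9, which held 80 of the 1607 overlapped H3K9ac sites. These 3 were picked by their losses, so the count is a description only.

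Among the pairs, the smallest FDR values did not belong to the largest losses. The H3K9ac site at chr12:120729570-120730070 went from 10.15 to 9.03, its FDR being 3.85e-05 per the authors' deposited table, and its member site, 5 bp away by centre, had levels of 7.73 and 6.66. The site at chr19:45981829-45982329 fell by 1.11 to 8.89 at the same FDR per the authors' deposited table, and its member site had levels of 8.09 and 6.91. These sites, chosen after their values were seen, lost 2.17-fold and 2.16-fold. At the extremes, size and FDR were thus ordered differently, and group means hold no spread between libraries to set beside this. Over the pairs as a whole, losses were larger at stricter limits. The median difference was -0.85 at FDR under 0.05 and -1.10 at FDR under 0.01, beside -0.75 over all pairs.

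Gains under member sites were few and began from low levels. All 10 gains lay in the lowest class of shControl level, beside 0.776% higher among deposited sites. The 7 gains at H3K9ac sites without Rbap46 also lay in the lowest class, so a low start was not particular to member sites. At chr1:33168476-33168976, where Rbap46 stood at 7.48 and input at 6.52, H3K9ac went from 7.03 to 8.25. At chr11:45921295-45921795 the levels were 7.21 and 5.97, and H3K9ac went from 7.06 to 8.07. These were the only 2 pairs with at least a 2-fold gain. At chr22:29075825-29076325 the levels were 6.89 and 5.32, and H3K9ac went from 7.37 to 8.31. A site on chromosome 8 (levels 7.55 and 6.15) and chr18:46477924-46478424 (6.77 and 5.03) had gains of 0.84 and 0.77. At chr17:60704437-60705402 the levels were 6.48 and 5.09 and the gain was also 0.77. The other 4 gains, on chromosomes 1, 2, 11 and 10, ran from 0.62 to 0.76. Enrichment at the 10 sites ranged from 0.74 to 1.74, within the range of sites with losses.

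Member sites with the highest Rbap46 level were also high in input. At chr9:134000727-134001227 the Rbap46 level was 10.82 and the input level 9.64, with H3K9ac at 10.17 in shControl and 9.26 in shHAT1. On chromosome 22, the sites starting at 21212838, 19466914 and 19158979 had Rbap46 levels of 10.14, 9.75 and 9.68 and input levels of 8.68, 8.57 and 8.25. Their H3K9ac differences were -0.61, -0.83 and -0.52. The fifth, chr13:92001257-92001757, had levels of 9.53 and 7.75, and H3K9ac went from 9.09 to 8.09. The first 4 lie in stretches where input was raised along the chromosome, and the stretch around the fifth was not examined. Between 19000000 and 24000000 on chromosome 22 the median input level of all 183 Rbap46 sites under the limit was 7.48, and elsewhere on that chromosome it was 5.50. Within 500 kb of the chromosome 9 site it was 6.94 over 36 sites, and elsewhere on chromosome 9 it was 5.72. In the stretch of chromosome 22, 4 of the sites were member sites (2.19%), and the H3K9ac sites under them had a median shControl level of 9.27, below the 9.42 of all overlapped sites. Whether the Rbap46 and input libraries come from the labelled cells, and whether they share a karyotype with the H3K9ac libraries, was not tested. Without chromosomes 6, 9 and 22 the median difference over pairs was -0.74 and the Spearman correlation of enrichment with it 0.068, beside -0.75 and 0.084 over all pairs.

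Member sites were unevenly spread over chromosomes. On chromosome 16, 169 of 1281 sites under the limit (13.2%) were member sites, and on chromosome 13, 3 of 428 (0.701%), beside 5.27% over all. The other chromosomes ran from 2.37% on chromosome 14 to 7.6% on chromosome 5. Chromosome 16 also held 214 of the changed H3K9ac sites, of which 82.2% were overlapped, against 73.3% over the genome. Its members' median enrichment of 1.16 and H3K9ac difference of -0.78 were near those of all member sites. Its first 5000000 bp held 61 member sites among 260 (23.5%), with a median difference of -0.78.

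**Figure D5:**
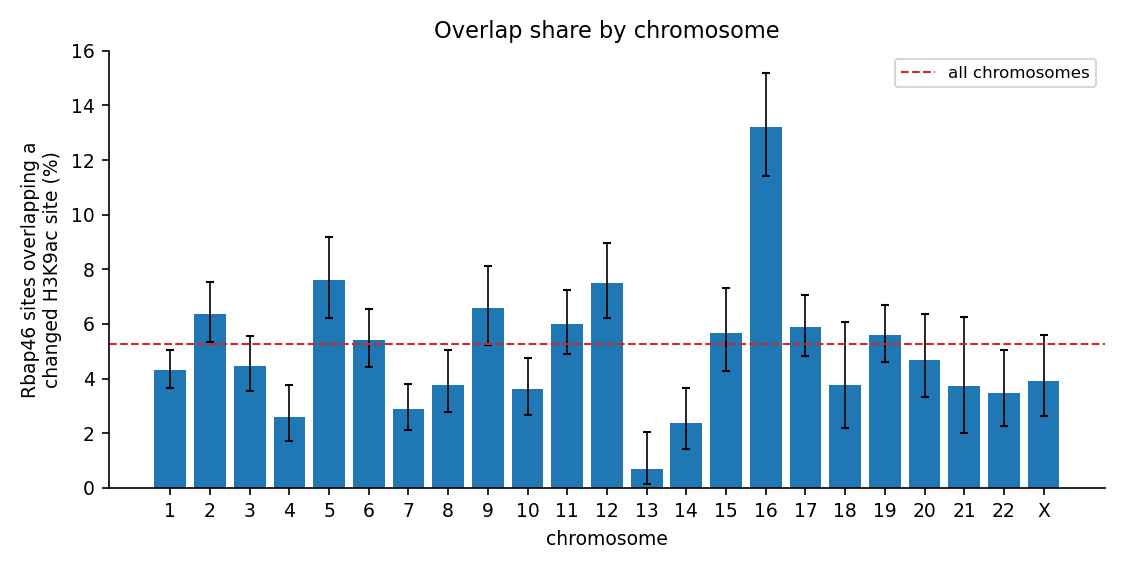
Share of Rbap46 sites under the limit that overlap a changed H3K9ac site (%, vertical axis) on each chromosome (horizontal axis), with exact 95% binomial intervals as bars. Chromosome 16 stands at 13.2% and chromosome 13 at 0.701%, with the share over all chromosomes, 5.27%, as a dashed line.

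The windows of 1 Mb with most member sites were 2 to 3 Mb of chromosome 16 with 19, 26 to 27 Mb of chromosome 6 with 16, and 3 to 4 Mb of chromosome 16 with 14. Most windows held far fewer, with exactly 1 member site in 473 of the 840 windows that had any. The short arm of chromosome 6 carries the main human cluster of replication-dependent histone genes; which sites lie at those genes was not analysed here. Between 26 and 28 Mb of chromosome 6 there were 28 member sites among 165 under the limit (17%), overlapping 30 H3K9ac sites. Their enrichment ran from 0.71 to 1.37 with a median of 1.04. H3K9ac loss was above that of most member sites, with differences from -1.39 to -0.77 and a median of -1.08. At least a 2-fold loss was present at 23 of 30, beside 18.3% of all deposited sites. The region held 44 changed H3K9ac sites in all. At those that no Rbap46 site above input overlapped, differences ran from -1.33 to -1.04, so the larger loss was not particular to member sites. Median H3K9ac levels were 8.86 in shControl and 7.79 in shHAT1, so the control level was below the 9.42 of all overlapped sites.

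Within that region the largest loss was at chr6:26234887-26235387, where Rbap46 stood at 7.68, input at 6.58 and H3K9ac at 8.80 in shControl and 7.41 in shHAT1. At chr6:27113598-27114098 the levels were 7.48 and 6.34, and H3K9ac went from 9.10 to 7.75. The strongest H3K9ac signal was at chr6:26156372-26156872, with levels of 7.26 and 6.17, where H3K9ac went from 10.13 to 8.84. The smallest loss was at chr6:26365328-26365828, with levels of 7.27 and 6.50, an H3K9ac level of 8.37 in shControl and a difference of -0.77. The region's median loss was thus larger than that over all pairs, -0.75, and its median enrichment was below the 1.16 of all member sites, with single sites on both sides of that value. In 2 to 3 Mb of chromosome 16 the median enrichment was 1.29 and the median H3K9ac difference -0.81. The window from 139 to 140 Mb of chromosome 9 held 13 member sites among 75, with a median enrichment of 1.03 and a median difference of -0.95. That from 118 to 119 Mb of chromosome 11 held 9 among 49, with 1.25 and -0.97.

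Member sites differed little from other Rbap46 sites in shape and spacing. Wider than 501 bp were 38 of 1589 member sites (2.39%) and 450 of 28537 others (1.58%). The nearest other Rbap46 site lay at a median of 9340 bp from member sites and 7470 bp from the others, and within 1 kb for 13.9% and 10.3%. H3K9ac sites under member sites were more often wide, with 385 of 1607 (24%) wider than 501 bp against 76 of 523 (14.5%) without Rbap46, and a wider site has more room for an overlap.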

How the data were processed

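The authors deposited tables of their own comparisons, Rbap46 against input and H3K9ac in shControl against shHAT1 cells. Per the file headers these follow the layout of a DiffBind report, with log2 concentrations per group, a log2 fold, a p-value and an FDR per site. The submitters' processing notes name cutadapt 1.8.1, Bowtie2, SAMtools 1.2, Picard 1.92, MACS2 2.1.0, R 3.3.1, DiffBind, DESeq2 and build hg19 for Rbap46 and input, and cutadapt, Bowtie2, Picard, SAMtools, MACS2, DiffBind and hg19 for H3K9ac, with no role. Scaling between libraries was not given in the sources used here. The tables covered 10 of 24 libraries; the 14 libraries for HAT1, H4K5ac and H4K12ac were left out. Tables were normalized separately, and only sites past the authors' FDR were used.

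Differences were computed from the deposited levels, as Rbap46 minus input and shHAT1 minus shControl. The Rbap46 differences lay within 0.01 of the deposited fold. The deposited H3K9ac fold is shControl against shHAT1, so its sign is opposite to the difference used here. With its sign turned, it lay within 0.01 of the H3K9ac differences. Overlap was at least 1 bp on the same chromosome. Depth is unknown, as the deposited log2 values are group means; intervals are exact Clopper-Pearson and cover counting of sites only. The sites named were the 5 with the largest enrichment, loss, gain and Rbap46 level; others were chosen after their values were seen. The members, lists and alternatives were chosen with earlier results of these data known. Planned gene lists and promoter shares were not run, since no annotation of hg19 was used. The overlap search was tested on simulated data. Computations ran in Python 3.11 with pandas 2.3.3, numpy 2.4.6 and scipy 1.17.1, and figures in matplotlib 3.10.9.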

Additional observations from a re-analysis of the deposited data

How the results depend on the processing

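Of 57 recomputed values, 42 stayed near the main value and 15 moved further. Near means within 1.5 times for a count, within the 95% binomial interval of a median or share, or within 0.05 for a correlation. No recomputed correlation changed sign, those within classes of level being averages over the 4 classes. In single classes the sign differed, at -0.038 for enrichment in the highest class and 0.013 for distance in the lowest. With H3K9ac FDR under 0.05, member sites fell from 1589 to 577, the median H3K9ac difference was -0.85, the centre distance 175 bp and the share with at least a 2-fold loss 25.9%. With FDR under 0.01, 30 member sites were left, with a median enrichment of 1.05, a difference of -1.10, a distance of 93.5 bp, a 2-fold share of 76.7%, and correlations of 0.281 for enrichment and -0.427 for distance. Fewer sites, with larger losses, pass these limits by construction. Covering at least 50% of the H3K9ac site gave a distance of 104 bp. Rbap46 FDR under 0.001 gave an enrichment of 1.23. Pairs with both sites at the smallest width gave a distance of 175 bp and a 2-fold share of 16.2%. The distance correlation within classes of level was added after seeing the data. No paired analysis was possible because the values used here are means over each group, and leaving out a library was not run for the same reason. Promoter windows were not run. Read numbers enter only through the level of a site, so weak enrichment or loss at low levels was not detectable.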
